A study of Mus musculus with 2 samples.

Results

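The integrin genes known from epithelia and matrix adhesion were examined for regions bound by Etv4 and Etv5: Itga2, Itga3, Itga5, Itga6, Itgav, Itgb1, Itgb4, Itgb5, Itgb6 and Itgb8. They are 10 of the 21938 protein-coding genes of the GENCODE annotation on GRCm38 (mm10), and were chosen by name. A region was counted for a gene when it lay inside the gene or within 50 kb of either end. By this rule 57 of the 13636 Etv4 regions and 33 of the 8297 Etv5 regions belonged to the integrin genes.

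The data comprised 2 ChIP-seq libraries of EpRas cells, a derivative of the EpH4 line of mouse mammary epithelium that carries oncogenic H-Ras. The cells of both were grown in 4% serum and exposed for 1.5 h to TGF-β3 at 1 ng/ml, and the libraries differed in the antibody: a rabbit polyclonal antibody to Etv4 or a mouse monoclonal antibody to Etv5. ChIP-seq sequences the DNA that an antibody recovers with its protein, and each library was reduced by the authors to a list of enriched regions. There was 1 library for each antibody, with no untreated, untransformed or input library among the lists, so neither an effect of TGF-β or Ras nor a difference between the antibodies could be tested. The labelled cell type could not be checked against marker genes, since the lists hold no expression values, and it is likewise not measured here which of the integrins these cells make.

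Integrins are cell surface receptors made of an α and a β chain, and the pairing decides which matrix protein is bound. Epithelial cells rest on laminin through the pairs α3β1 and α6β4, of which α6β4 builds the hemidesmosome, bind collagen through α2β1, and bind fibronectin, vitronectin and latent TGF-β through α5β1 and the αv pairs. Etv4 and Etv5 are ETS family transcription factors of the PEA3 group and recognise DNA with a GGAA core, while AP-1 sites bind Fos and Jun proteins.

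Sequences from the regions are given first, to show which recognition sites they do and do not hold. An ETS site was defined as CAGGAAGT or CCGGAAGT on either strand, and only 3 places at the integrin genes had one in DNA that the Etv4 and Etv5 lists share. They are printed here with the site in capitals, from the plus strand of GRCm38 (mm10): upstream of Itga3 (chr11:95102614-95102713), upstream of Itgb4 within the neighbouring gene Sap30bp (chr11:115954924-115955023, where the site reads on the minus strand) and in intron 4 of Itgb5 (chr16:33878467-33878566).
Itga3, 25.9 kb upstream: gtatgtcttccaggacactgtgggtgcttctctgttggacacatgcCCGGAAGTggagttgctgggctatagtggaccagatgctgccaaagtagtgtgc
Itgb4, 19.7 kb upstream: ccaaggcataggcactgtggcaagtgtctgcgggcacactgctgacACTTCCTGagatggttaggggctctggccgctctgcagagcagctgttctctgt
Itgb5, 48.9 kb inside the gene: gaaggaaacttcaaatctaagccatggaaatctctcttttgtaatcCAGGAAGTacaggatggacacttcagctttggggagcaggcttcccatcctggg

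The second set comes from the only 2 integrin genes where an Etv4 and an Etv5 region overlapped within 2 kb of a start, Itga3 (on the minus strand of chromosome 11) and Itgb1 (on the plus strand of chromosome 8). None of the 4 windows of 200 bases, taken at the centres of the overlaps or just before the start, has an ETS site as defined above. Capitals mark the shorter core GGAA and its reverse TTCC, which were added after the values were seen. The windows are chr11:95075770-95075969, chr11:95076931-95077130, chr11:95077881-95078080 and chr8:128685454-128685653, again on the plus strand.
Itga3, first intron: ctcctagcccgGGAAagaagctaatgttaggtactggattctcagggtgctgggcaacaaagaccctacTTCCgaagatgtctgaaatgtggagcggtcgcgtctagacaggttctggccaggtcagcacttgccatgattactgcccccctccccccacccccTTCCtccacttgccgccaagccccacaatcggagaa
Itga3, at the start: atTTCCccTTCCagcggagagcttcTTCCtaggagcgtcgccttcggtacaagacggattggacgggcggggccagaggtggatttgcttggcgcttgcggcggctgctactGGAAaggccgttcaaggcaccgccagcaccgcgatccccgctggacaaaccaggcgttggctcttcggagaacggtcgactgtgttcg
Itga3, upstream of the start: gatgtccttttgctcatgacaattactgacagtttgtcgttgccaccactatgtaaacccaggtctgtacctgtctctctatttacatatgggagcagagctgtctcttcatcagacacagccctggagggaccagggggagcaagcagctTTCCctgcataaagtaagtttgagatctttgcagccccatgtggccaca
Itgb1, at the start: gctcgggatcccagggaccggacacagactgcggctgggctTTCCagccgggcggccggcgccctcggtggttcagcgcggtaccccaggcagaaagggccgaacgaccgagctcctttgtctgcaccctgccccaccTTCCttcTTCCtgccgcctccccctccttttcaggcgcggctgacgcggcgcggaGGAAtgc

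These windows held 3, 4, 1 and 4 cores, in the order printed. The core is common, with a median of 2 in the 200 bp tiles of the genome and at least 1 in 87.5% of them, so its presence here is a description of the letters only. The first Itga3 window also holds gtctagac, the palindrome that Smad proteins can bind. The Itga3 and Itgb1 windows at the start each hold 20 CG pairs and are 62.5% and 70.0% G or C, whereas the window upstream of the Itga3 start holds 1 CG pair and is 49.0% G or C.

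The last set shows AP-1 sites, defined as TGACTCA or TGAGTCA, in overlaps of Etv4 and Etv5 regions. These lines were chosen after the values were seen, as the sites nearest to the middle of the Etv4 region in the 3 genes where that distance was smallest. The sites are 34, 35 and 46 bp from that middle. Their windows are chr2:60703444-60703484 (Itgb6), chr8:128666974-128667014 (Itgb1) and chr2:83714950-83714990 (Itgav), on the plus strand with the site in capitals.
Itgb6, 19.2 kb inside the gene: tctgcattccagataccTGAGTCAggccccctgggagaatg
Itgb1, 18.7 kb upstream: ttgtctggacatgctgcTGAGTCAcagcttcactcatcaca
Itgav, 9.43 kb upstream: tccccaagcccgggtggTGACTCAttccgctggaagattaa

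Etv4 regions were found at 9 of the 10 integrin genes, against 53.4% of all protein-coding genes. Etv5 regions were found at 8 of the 10, against 42.7% of all protein-coding genes, and the same 8 genes had both, against 36.4%. Itgb8 alone had neither, and Itga2 had Etv4 regions only. A region reached into the gene itself at 8 members for Etv4 (23.0% of all protein-coding genes) and at 6 for Etv5 (14.7%).

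**Figure D1:**
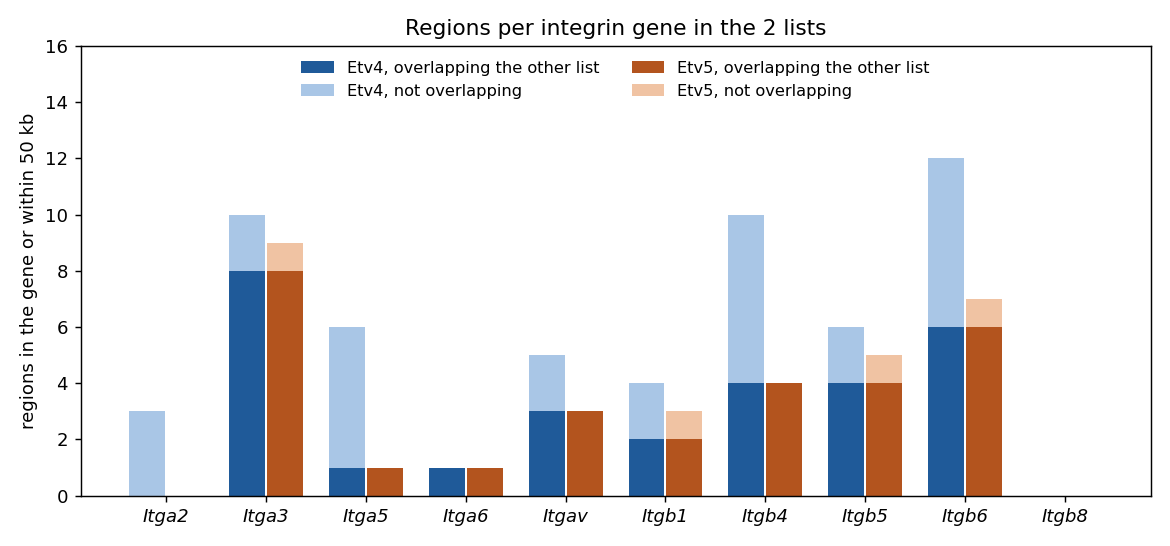
Number of regions (vertical axis) inside each integrin gene or within 50 kb of it, for the Etv4 list (blue) and the Etv5 list (orange), with the dark part counting regions that overlap one of the other list. Itgb6, Itga3 and Itgb4 carry 12, 10 and 10 Etv4 regions, Itga2 has Etv4 regions only and Itgb8 has none.

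The genes differed widely in number. The Etv4 counts, from high to low, were 12 at Itgb6, 10 at Itga3 and Itgb4, 6 at Itga5 and Itgb5, 5 at Itgav, 4 at Itgb1, 3 at Itga2, 1 at Itga6 and 0 at Itgb8. The Etv5 counts were 9 at Itga3, 7 at Itgb6, 5 at Itgb5, 4 at Itgb4, 3 at Itgav and Itgb1, 1 at Itga5 and Itga6, and 0 at Itga2 and Itgb8. The counts come from 1 library each and have no replicate spread, so the order of neighbours in these series cannot be tested. The median was 5.5 Etv4 and 3 Etv5 regions per integrin gene, and 1 and 0 over all protein-coding genes.

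The 10 integrin genes were long, with a median window of 182 kb including the flanks against 117 kb. Per 100 kb of window the integrin genes had 3.25 Etv4 and 1.88 Etv5 regions, and all protein-coding genes had 0.992 and 0.564. Windows of neighbouring genes overlap, so a region can count for several genes in the second pair of values.

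**Figure D2:**
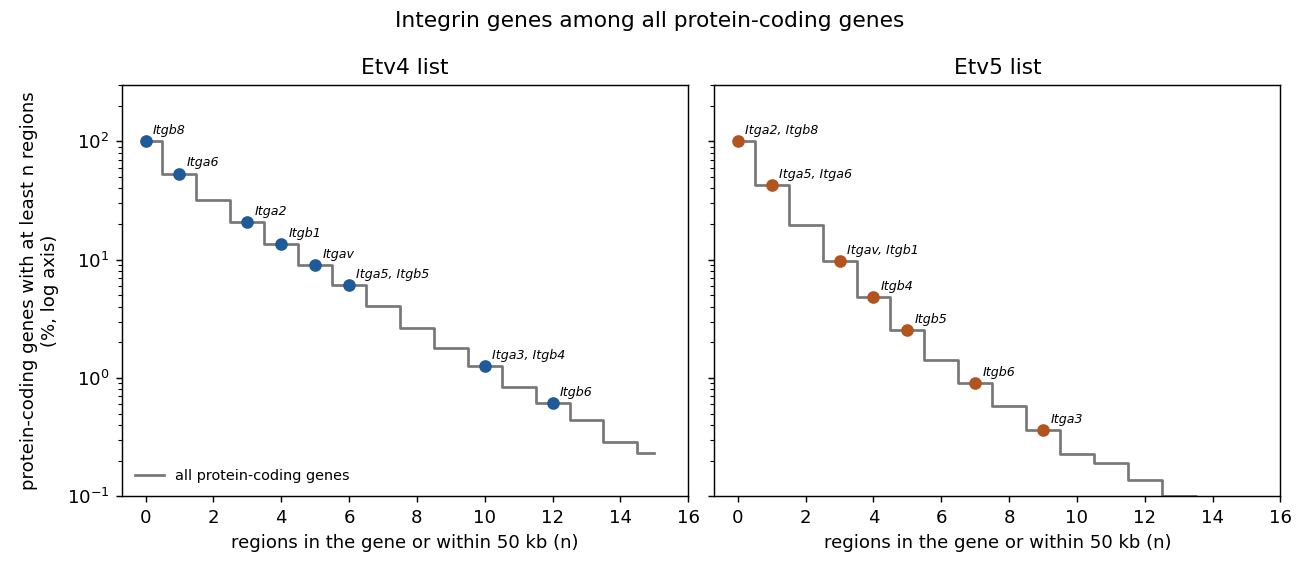
Share of all protein-coding genes (vertical axis, percent on a log axis) that have at least the number of regions on the horizontal axis, for the Etv4 list (left) and the Etv5 list (right). Points place the integrin genes on the curve: 0.611% of genes have as many Etv4 regions as Itgb6, and 0.365% have as many Etv5 regions as Itga3.

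Among the laminin receptor genes, Itga3 (chr11:95044474-95076801, minus strand), which encodes the α3 chain, stood near the top of both lists. Its 10 Etv4 regions were equalled or exceeded at 1.25% of protein-coding genes and its 9 Etv5 regions at 0.365%. Only Asap1 and Hook2 had the same pair of counts. The Etv4 regions spanned 33.6 kb around the start of the gene, and 8 of them overlapped an Etv5 region. These 8 overlaps were centred 3.75 and 0.931 kb inside the gene, in its first intron, and 0.230, 1.18, 9.39, 12.1, 20.01 and 25.8 kb upstream. The Etv4 region at the start ran across the annotated 5′ end, and the longest, 9.53 kb upstream, measured 1443 bp and bore region number 811 of 13636. Its Etv5 partner bore number 789 of 8297. The 4 regions farthest upstream (2 Etv4 and 2 Etv5) were nearer to the start of Dlx3, a homeobox gene, than to that of Itga3.

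Itgb4 (chr11:115974709-116008412, plus strand), encoding the β4 chain of the hemidesmosome, had 10 Etv4 and 4 Etv5 regions. As many were found at 1.25% and 4.82% of protein-coding genes. All 4 Etv5 regions overlapped Etv4 regions, and these overlaps were centred 3.44, 4.13, 16.7 and 19.5 kb upstream. The start itself had an Etv4 region only, of 345 bp and centred 0.049 kb inside the gene, with region number 11679 of 13636. Positions at Itgb4 are shared with other genes: 4 Etv4 and 2 Etv5 regions upstream lay within Sap30bp, though nearer to the Itgb4 start, and the 3 Etv4 regions downstream lay in H3f3b, a histone H3.3 gene, and Unk. No region of either list had its midpoint inside Itgb4 apart from the one at the start.

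Itga6 (chr2:71745616-71858416, plus strand), which encodes the α6 partner of β4, had 1 Etv4 and 1 Etv5 region in a gene of 113 kb. As many Etv4 regions were found at 53.4% of protein-coding genes. The regions overlapped by 207 bp. The Etv4 region was centred 59.7 kb from the 5′ end of the gene and 18.3 kb from the start of the principal transcript, inside its first intron. Both were short, of 402 and 317 bp. The partner chains of α6β4 thus differed by 10 against 1 in Etv4 regions and 4 against 1 in Etv5 regions.

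Itga2 (chr13:114833081-114932100, minus strand) encodes the α2 chain of the collagen receptor. Its 3 Etv4 regions were all upstream, centred 1.54, 4.32 and 13.8 kb from the start and 997, 468 and 370 bp long. The nearest Etv5 region was 1282 kb away from the gene.

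Itgb1 (chr8:128685654-128733200, plus strand) encodes β1, the common partner of α2, α3, α5 and α6. It had 4 Etv4 and 3 Etv5 regions, numbers reached by 13.4% and 9.73% of protein-coding genes. Regions of both lists crossed its 5′ end and overlapped by 312 bp. A separate Etv5 region of 322 bp lay 0.661 kb inside the gene. These 2 Etv5 regions bore late numbers, 7975 and 7826 of 8297, and the Etv4 region at the 5′ end bore number 3857 of 13636. The pair centred 18.7 kb upstream had the lowest region numbers at any integrin gene, 310 for Etv4 and 235 for Etv5, and overlapped by 940 bp. The remaining Etv4 regions were 30.7 kb upstream, in the annotated gene Gm45746, and 18.1 kb inside the first intron of Itgb1.

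Of the genes for receptors of the RGD motif, the short peptide of fibronectin and vitronectin, Itga5 (chr15:103344286-103366763, minus strand) had 6 Etv4 regions and 1 Etv5 region. Its Etv4 regions were upstream, between 1.59 and 11.8 kb from the start, apart from 1 that was 8.14 kb inside the gene, within 2 kb of an internal transcript start. The single Etv5 region, 11.9 kb upstream, was the longest Etv5 region at the integrin genes, with 1226 bp and region number 353, and overlapped the farthest Etv4 region by 914 bp.

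Itgav (chr2:83724397-83806916, plus strand) encodes αv, the partner of β5, β6 and β8. It had 5 Etv4 and 3 Etv5 regions. The 3 overlaps were centred 9.50 kb upstream and 20.5 and 34.4 kb inside the gene, in introns 2 and 4 and also within the annotated genes Gm13684 and, for the first of them, Dnmt3l-ps1. The Etv4 list alone had a region at the start, 0.651 kb inside the gene.

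Itgb5 (chr16:33829665-33949338, plus strand), for the β5 chain of a vitronectin receptor, had 6 Etv4 and 5 Etv5 regions, all inside the gene. There were 4 overlapping pairs, centred 7.25, 43.7, 48.6 and 59.4 kb from the start in introns 1, 3, 4 and 5. Near the 5′ end only the Etv5 list had a region, 0.679 kb inside the gene, and it bore one of the last numbers of that list, 8184 of 8297. The Etv4 region of 1016 bp in intron 1 bore number 819.

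Itgb6 (chr2:60598292-60722643, minus strand) encodes β6, which is restricted to epithelia and with αv activates latent TGF-β. It had 12 Etv4 and 7 Etv5 regions, numbers reached by 0.611% and 0.903% of protein-coding genes. A group of 6 Etv4 and 4 Etv5 regions spanned 15.1 kb and lay in an intron of longer annotated transcripts, 15.5 to 29.7 kb before the start of the principal transcript. All 4 Etv5 regions of the group overlapped an Etv4 region, and the pair 15.5 kb before that start bore region numbers 471 and 245. Other overlaps lay in introns 7 and 8. The Itgb6 start was the nearest gene start for 10 of the Etv4 and 5 of the Etv5 regions. For the others, among them the pair in intron 8, it was that of Pla2r1. No region of either list was centred within 2 kb of any Itgb6 start, but an overlapping pair lay just past this limit. Its Etv4 and Etv5 regions were centred 2148 and 2200 bp from an annotated start.

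Itgb8 (chr12:119158022-119238802, minus strand) encodes β8, which with αv also activates latent TGF-β. The nearest Etv5 region was 69.8 kb and the nearest Etv4 region 151 kb away from the gene.

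**Figure D3:**
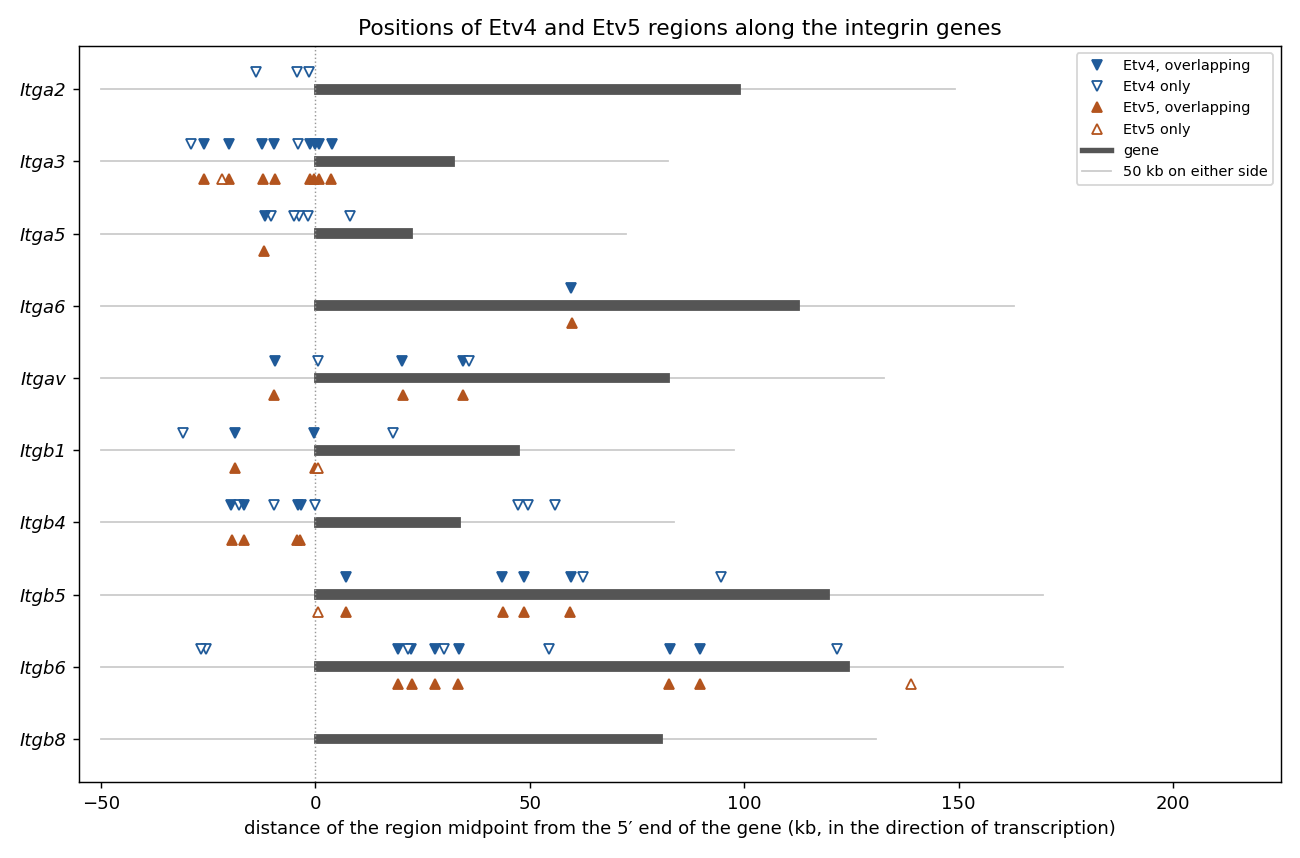
Position of each region's midpoint (triangles) relative to the 5′ end of the gene, in kb along the direction of transcription, with the gene as a thick bar and the 50 kb on either side as a thin line. Etv4 regions are above and Etv5 regions below each gene, filled where they overlap the other list. Filled pairs crowd around the start of Itga3, lie upstream of Itgb4 and lie inside Itgb5 and Itgb6.

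The farthest region kept outside a gene was 30.5 kb from it. The nearest ones left out were an Etv4 region 51.3 kb from Itgb5, just past the limit, and an Etv5 region 53.2 kb from Itgb4. The gene start nearest to a region was that of the integrin gene for 49 of the 57 Etv4 and 29 of the 33 Etv5 regions.

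Regions at the integrin genes were often in both lists. Of the Etv4 regions 29 of 57 overlapped an Etv5 region, which is 50.9% (exact 95% binomial interval 37.3 to 64.4) against 37.8% of the whole list. Of the Etv5 regions 29 of 33 overlapped an Etv4 region, which is 87.9% (71.8 to 96.6) against 63.2%. The share of the whole list was inside the interval for Etv4, at its lower end, and below the interval for Etv5. Among regions within 50 kb of other protein-coding genes, the shares with an overlap of at least 1 bp were 36.6% and 62.4%. With an overlap of 50% of both regions required, the shares were 38.6% (25.996 to 52.4) for Etv4 and 66.7% (48.2 to 82.0) for Etv5. The lists had 29.5% and 48.4%, both inside the intervals, the Etv5 value at the very lower end of its interval. The intervals cover counting error only and treat regions as independent, which neighbours at one gene may not be.

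The 29 pairs varied in how far they overlapped. Their overlaps measured 112 to 962 bp with a median of 540 bp, and the midpoints of the partners were 123 bp apart in the median and 398 bp at most. In 22 of the pairs the overlap covered at least 50% of both regions. Of the 28 Etv4 regions without a partner, 6 each were at Itgb4 and Itgb6. The 4 Etv5 regions without a partner were at Itga3 (21.8 kb upstream), Itgb1 (0.661 kb inside), Itgb5 (0.679 kb inside) and Itgb6 (14.3 kb past its end).

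As over the whole lists, shared regions were longer and had lower region numbers. The median length of the Etv4 regions was 809 bp with an Etv5 partner and 526 bp without, and 550 and 343 bp for Etv5. Over the whole lists these medians were 728 and 526 bp for Etv4 and 589 and 425 bp for Etv5. Counted from the top of its list, 26 of 29 shared Etv4 regions were in the first 50%, against 9 of 28 unshared ones. For Etv5 the numbers were 16 of 29 and 1 of 4. The whole lists had 72.4% of shared and 36.4% of unshared Etv4 regions in the first 50%, and 63.4% and 27.0% for Etv5. The authors' criterion for the region number is not stated. Length and region number moved together with overlap, and their part in it was not tested.

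**Figure D4:**
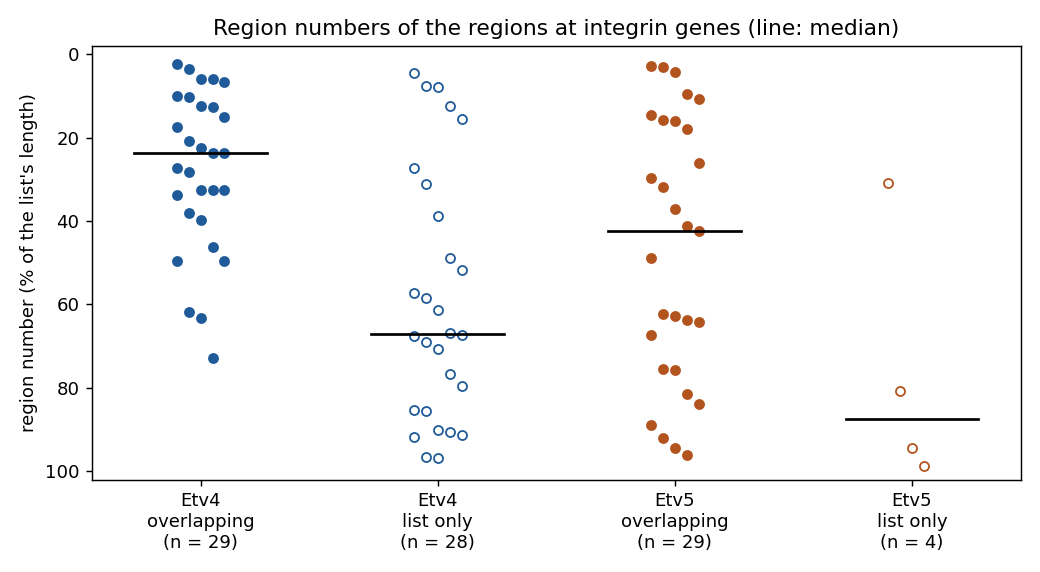
Region number of every region at the integrin genes as a percent of its list's length (vertical axis, first regions at the top), for Etv4 and Etv5 regions with and without an overlapping partner, with the median as a line. The median is 23.8% for shared and 67.1% for unshared Etv4 regions, and 42.4% and 87.5% for Etv5.

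By position, 11 Etv4 regions were centred within 2 kb of a transcript start of their integrin gene, 20 in introns, 23 upstream and 3 downstream. For Etv5 the numbers were 6, 14, 12 and 1. Starts held 19.3% and 18.2%, against 14.8% and 14.2% of all pairs of a region and a protein-coding gene within 50 kb, and upstream positions 40.4% and 36.4%, against 33.2% and 34.2% of those pairs. Introns held 35.1% of the Etv4 regions (22.9 to 48.9) and 42.4% of the Etv5 regions (25.5 to 60.8), against 11.9% and 13.2% of those pairs. Positions downstream held 5.26% (1.10 to 14.6) and 3.03% (0.0767 to 15.8), against 38.9% and 37.6% of those pairs. Gene length was not matched in this comparison. None was centred in an exon away from a start: 0 of 57 allows a share of up to 6.27%, and 0 of 33 up to 10.6% (upper ends of the exact 95% intervals), and exons held 1.11% and 0.792% of those pairs. An Etv4 region was at a start of 7 members, against 17.9% of protein-coding genes, and these were Itga2, Itga3, Itga5, Itgav, Itgb1, Itgb4 and Itgb5. At Itgb5 the starts were internal ones. An Etv5 region was there at 3 members, against 10.6%, which were Itga3, Itgb1 and Itgb5. Both counts were lower, at 3 and 0, when only the leading 50% by region number were kept. The share of protein-coding genes was not computed for these shortened lists, so the drop cannot be read as particular to the integrin genes. Counting starts of any gene, 35.1% of the Etv4 regions (22.9 to 48.9) and 27.3% of the Etv5 regions (13.3 to 45.5) lay within 2 kb of one, against 36.4% and 33.0% of the whole lists, values inside both intervals.

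AP-1 sites were about as frequent in these regions as over the whole lists. In the 500 bp around the midpoint, 23 of 57 Etv4 regions held an AP-1 site, which is 40.4% (27.6 to 54.2), against 37.4% of the whole list and 7.67% of all 500 bp tiles of the genome. Of the Etv5 regions 10 of 33 did, which is 30.3% (15.6 to 48.7), against 35.8% of the list. Both list shares lie inside the intervals and the share of tiles below them. In 200 bp around the midpoint the share of Etv4 regions was 21.1%, against 24.0% of the list. Each of the 9 integrin genes with an Etv4 region had at least 1 with an AP-1 site, such as 2 of 3 at Itga2, 3 of 5 at Itgav and 5 of 12 at Itgb6. Itga3 had 2 of 10, and none of its 9 Etv5 regions had one in this window. The Etv5 region 9.39 kb upstream held 2 AP-1 sites just outside it, 263 and 266 bp from the midpoint.

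An ETS site was found in 3 of 57 Etv4 regions (5.26%, 1.10 to 14.6) and 1 of 33 Etv5 regions (3.03%, 0.0767 to 15.8), the places printed above. In the whole lists the shares were 10.2% and 7.95%, in the genome tiles 3.60%, and in RefSeq promoters of 300 bases 7.07%. The intervals of the integrin genes hold both the list's and the genome's share, so that a difference from either was not detectable with these numbers. The Itgb4 and Itgb5 sites were 283 and 285 bp from the middle of the Etv5 region and thus outside its window. Over the whole length of the regions 3 of 33 Etv5 regions held an ETS site, which is 9.09%, against 8.22% of the whole list. With the pattern CCGGAAGT alone, 1 of 57 Etv4 regions held one (1.75%), against 3.46% of the list and 0.307% of the tiles. Either ETS pattern was found within 200 bp in 1 of 57, against 5.03% of the list.

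RUNX sites, defined as TGTGGTT or TGTGGTC, were in 12 of 57 Etv4 (21.1%, 11.4 to 33.9) and 6 of 33 Etv5 regions (18.2%, 6.98 to 35.5), against 24.7% and 23.9% of the lists and 16.9% of the tiles. The Smad palindrome was in 2 Etv4 regions (3.51%, 0.428 to 12.1) and 2 Etv5 regions (6.06%, 0.743 to 20.2), against 0.792% and 0.760% of the lists and 0.384% of the tiles. The list shares lie inside these intervals. The regions are the partners of 2 pairs, in the first intron of Itga3 and upstream of Itgav. The ETS letters written backwards, a control with the same composition, were in 1 Etv4 region (1.75%, 0.0444 to 9.39) and 1 Etv5 region (3.03%, 0.0767 to 15.8), against 3.60% and 3.80% of the lists and 3.42% of the tiles. No ETS, AP-1 or RUNX site was found in 24 of 57 Etv4 regions (42.1%, 29.1 to 55.9) and 19 of 33 Etv5 regions (57.6%, 39.2 to 74.5), against 42.8% and 45.8% of the lists.

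**Figure D5:**
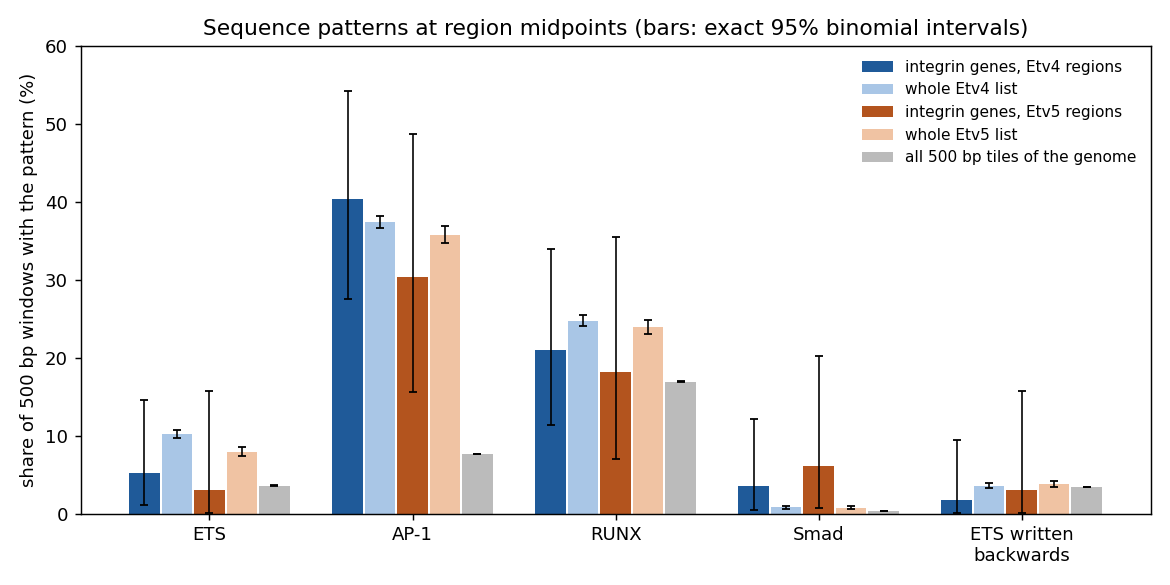
Share of 500 bp windows around region midpoints that hold each pattern (vertical axis, percent), for the regions at integrin genes, the whole Etv4 and Etv5 lists and all 500 bp tiles of the genome, with exact 95% binomial intervals as bars. AP-1 reaches 40.4% and 30.3% at the integrin genes against 7.67% of tiles, and ETS 5.26% and 3.03% against 3.60%.

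Within the DNA that both lists share, 11 of the 29 pairs had an AP-1 site (37.9%, 20.7 to 57.7), 4 a RUNX site (13.8%, 3.89 to 31.7) and 3 an ETS site (10.3%, 2.19 to 27.4). Over all 5311 pairs of the lists the shares were 42.0%, 26.6% and 8.83%, all inside the intervals. The AP-1 sites there numbered 15 at 7 genes, 8 of them TGACTCA and 7 TGAGTCA, which are the same site read from opposite strands. They were 86 bp in the median from the midpoint of the Etv4 region and 177 bp from that of the Etv5 region. Repeated sequence was scarce: at most 22.3% of the 36-base sequences of a region occurred more than once in the assembly.

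The remaining 17 integrin genes, such as those of leukocytes and platelets, served as a comparison by the same rule. One of them, Itga1, lies within 50 kb of Itga2 and also had 3 Etv4 and 0 Etv5 regions, so a region there can count for both genes. Etv4 regions were at 12 (70.6%) and Etv5 regions at 8 (47.1%) of them, with medians of 1 and 0 regions per gene, as over all protein-coding genes. The most were at Itgb3, the β3 chain of another αv receptor, with 9 and 5, followed by Itgb2 with 6 and 3, Itgb7 with 6 and 2, and Itga7, a laminin receptor chain, with 5 and 2. Of 22 genes for proteins that join integrins to the cytoskeleton or build hemidesmosomes, all 22 had an Etv4 and 16 an Etv5 region (53.4% and 42.7% of all protein-coding genes), with medians of 5 and 2. The most Etv4 regions were at Tns3 (20, with 7 of Etv5), Dst (14 and 5), Tln1 (13 and 4) and Plec (13 and 7), where Dst and Plec encode the plakins that tie α6β4 to keratin and Tln1 encodes talin, which binds β tails. Ptk2, encoding focal adhesion kinase, had more Etv5 than Etv4 regions, 7 against 4. The windows of these 22 genes have a median of 155 kb, but those of Dst and Tns3 measure 500.4 and 333 kb. Those of Tln2, Ptk2, Tns1 and Parva measure 443, 318, 314 and 264 kb. All of these are longer than any window of the 10 integrin genes, of at most 224 kb.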

How the data were processed

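ChIP-seq libraries were amplified by 15 PCR cycles and sequenced on an Ion Proton. The authors called regions per library with one-sample CisGenome (window 300 bp, p threshold 0.1), without input. Mapping to mm10 with Bowtie is named in the submitters' processing notes, and reads cut to 36 bp are described for the accessibility libraries. The deposited lists give positions, a region number and a score, which is 1000 in every row. They hold no counts, so depth is unknown and cannot be told apart from list length.

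Genes were those of GENCODE M21 and sequence that of GRCm38.p6. Distances run from the region midpoint to the 5′-most end of the gene. Overlap needed 1 bp, and patterns were sought on both strands. Intervals are exact (Clopper-Pearson, 95%). No test was made, with 1 library per antibody. All 10 genes were named, and other genes by equal counts or most regions. A result under that rule is not reported here. The genes and lists were chosen with earlier results of these data known. Functions were tested on simulated data, where 700 of 700 planted overlaps and 400 of 400 planted sites were found. Python 3.11.15, numpy 2.4.6, scipy 1.17.1, numba 0.67.0 and matplotlib 3.10.9 were used. Expression and accessibility were not used here.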

Additional observations from a re-analysis of the deposited data

How the results depend on the processing

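No paired analysis was possible because there was only 1 library for either antibody, and for the same reason no replicate could be left out. Over 12 results and 15 other settings, 56 values stayed within 1.5 times the reported count or within the interval of the reported share, 14 moved and 0 reversed. The intervals are wide: the ETS share ranged from 1.75% (window of 200 bp, or CCGGAAGT alone) to 9.09% (longer 50%) for Etv4, all within them. For Etv5 it reached 9.09% in whole regions, also within its interval of 0.0767 to 15.8. It fell below that interval, to 0%, with the shortened lists that follow. With the longer 50% of each list, the integrin genes had 33 Etv4 and 16 Etv5 regions, Etv4 regions at the starts of 3 members, Etv5 at 1, and an ETS share of 0% for Etv5. With the first 50% by region number these were 35, 17, 3, 0 and 0%. The matching values over all protein-coding genes were not computed for the shortened lists. With equal numbers of regions in both lists, 68.4% of the Etv4 regions (51.3 to 82.5) and 78.8% of the Etv5 regions (61.1 to 91.0) overlapped the other list, against 50.1% and 51.6% of the whole lists. When the overlap had to cover 50% of both regions, 66.7% of the Etv5 regions overlapped (48.2 to 82.0), and the whole list's 48.4% lay just inside the interval. With starts taken within 5 kb, 5 members had an Etv5 region at a start, and the share of protein-coding genes at this distance was not computed. In a window of 200 bp the AP-1 share of Etv4 regions was 21.1%. The depth behind each list is unknown. A gene without a region is thus one where none was called at that depth, and depth and antibody cannot be told apart in the length of the lists. The cause of the other shifts was not tested.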
